A study of Sus scrofa with 8 samples.

Results

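The genes described here are the carriers that move fuels and amino acids across the cell's membranes, chosen by name as the rows of the count table that belong to the solute carrier families SLC1, SLC2, SLC3, SLC6, SLC7, SLC16, SLC36, SLC38 and SLC43. The name rule found 87 of the 31014 rows. Of these, 85 are carriers or their partner subunits. The other rows are SLC2A4RG, a regulator of transcription named after SLC2A4, and SLC7A6OS, the gene on the strand opposite to SLC7A6. A few carriers in the set, such as SLC38A9, SLC36A1 and SLC2A8, are known to work mainly on membranes inside the cell, so the set is wider than the plasma membrane.

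Heart tissue of wild-type miniature pigs was compared between 5 samples treated with doxorubicin, an anthracycline used against cancer that is known to harm the heart, and 3 treated with vehicle. The sources used here do not state the dose, the schedule, the age, the sex or the part of the heart. Nor do the labels say that each sample came from a separate animal, so the p-values speak of the spread among the sequenced samples, which may be technical. Total RNA was made into libraries with an mRNA kit, and the libraries held between 17442566 and 18267178 counts after doxorubicin and between 16105242 and 17195538 counts with vehicle.

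Heart muscle burns fatty acids, lactate, ketone bodies and glucose, and takes up creatine, taurine and amino acids from the blood. Glucose enters through the SLC2 family: SLC2A1 (GLUT1) sits on the membrane at rest, whereas SLC2A4 (GLUT4) is stored inside the cell and is brought to the surface by insulin and by contraction. Lactate, pyruvate and ketone bodies cross through SLC16 carriers in company with protons. Large neutral amino acids cross through pairs of a light chain of the SLC7 family and a heavy chain of the SLC3 family, and the amino acids that arrive are sensed by the kinase mTORC1.

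Of the 87 rows, 60 had enough reads to be tested. Another 10 had 0 reads in all 8 libraries, and 17 had some reads but no more than 74 over the 8 libraries together. Levels are given as CPM, the counts of a gene per 1e6 counts of its library, with library sizes scaled by the trimmed mean of M-values (TMM), as mean ± SD over 5 doxorubicin and 3 vehicle libraries. Differences were tested with edgeR's quasi-likelihood test, with p-values adjusted by Benjamini-Hochberg over all 14938 genes tested and a threshold of 0.05. After doxorubicin 15 of the 60 tested members passed, 11 higher and 4 lower. The share of all tested genes that passed was 24.9% (13.6% higher and 11.3% lower), and the members' share of 25% was near that background, so the number of calls is not a result about carriers. Their median log2 fold change was 0.21, beside 0.02 for all tested genes. The groups did not overlap for 22 of the 60, beside 34.9% of all tested genes. Since 4 tested members (SLC2A5, SLC6A5, SLC6A7 and SLC6A9) were under the count minimum in every vehicle library and were tested through their doxorubicin counts alone, the counts over tested members are descriptions. The filter asks for the minimum in as many libraries as the smaller group holds. SLC7A5 (4 reads in vehicle 2) and SLC2A8 (3 reads in vehicle 3) missed it there. Their vehicle counts alone would not have had them tested, so their calls are descriptions too.

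In these bulk samples, fewer cells of a type and less RNA per cell cannot be told apart. The heart muscle markers were abundant in every library, with sums over 10 genes from 40589 to 69282 CPM after doxorubicin and from 65480 to 73553 CPM with vehicle, the lowest in doxorubicin 5. Of the 10, none rose and 2 fell. When scaled by library size only, TNNT2 passed as higher (adjusted p = 0.0210), while RYR2, 1 of the 2 that fell, did not pass (0.0516). The 11 macrophage markers summed to between 253 and 771 CPM after doxorubicin, against 150.4 to 205 CPM with vehicle, and 5 of them rose. The 9 fibroblast markers summed to between 2524 and 31433 CPM, against 1269.9 to 1501 CPM, with 4 higher and 1 lower. Endothelial markers (9 genes) lay between 605 and 1678 CPM, against 1288 to 1629.9 CPM, with 1 higher. CLDN5 passed as higher too when scaled by library size only (adjusted p = 0.0133), and calls in other lists changed as well. T and NK markers (8 genes) had 5 higher, smooth muscle and pericyte markers (8 genes) 2 higher and 1 lower, and Schwann and nerve markers (5 genes) 1 lower. Adipocyte markers summed to between 38.1 and 144 CPM, against 259 to 414 CPM, and 2 of 3 tested fell, while neither of the 2 tested erythroid markers passed. Of the 5 epithelial markers 4 were tested and 2 rose. CDH1 averaged 7.84 CPM after doxorubicin, against 1.92 CPM with vehicle, and KRT8 43.8 CPM after doxorubicin, against 2.21 CPM with vehicle, whereas EPCAM was near 0 in both groups. KRT18 (adjusted p = 0.0895) and KRT19 (0.376 against 0.640 CPM, adjusted p = 0.706) did not pass by edgeR. Of the markers that passed, KRT8 and the T cell marker CD3D would not have been tested on their vehicle counts alone. Nor would the adipocyte marker ADIPOQ on its doxorubicin counts alone. Doxorubicin 5 stood apart from its group, with a mean correlation of 0.912 with the other doxorubicin libraries, where the others had 0.941 to 0.956. It had the highest macrophage, fibroblast, and smooth muscle and pericyte sums (771, 31433 and 4474 CPM) and the lowest endothelial sum (605 CPM). The part of these cell types in the results below was not tested.

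Per length of gene, the same 5 carriers led in both groups. After doxorubicin SLC2A4 stood first at 65.0 ± 23.2 CPM per kilobase, before SLC2A3 at 60.5 ± 7.55, SLC16A1 at 50.1 ± 6.25, SLC6A8 at 38.5 ± 10.6 and SLC38A2 at 31.1 ± 3.09 CPM per kilobase. With vehicle the order began with SLC16A1 at 89.2 ± 4.79 CPM per kilobase, then SLC2A4 at 72.8 ± 7.59, SLC2A3 at 63.8 ± 5.90, SLC6A8 between 35.1 and 36.8 and SLC38A2 at 29.8 ± 4.84 CPM per kilobase. Each neighbouring pair among these 5 overlapped in the doxorubicin libraries. In the vehicle libraries SLC16A1 lay above SLC2A4 without overlap (lowest 83.7 against highest 81.1 CPM per kilobase), SLC2A3 above SLC6A8, and SLC6A8 just above SLC38A2 (lowest 35.1 against highest 34.7 CPM per kilobase), while SLC2A4 and SLC2A3 overlapped. Over all rows of the name rule, SLC2A1 had rank 6 after doxorubicin, between 9.78 and 44.6 CPM per kilobase. With vehicle it had rank 9, between 4.45 and 7.27, where rank 8 was SLC2A4RG, which is not a carrier. Lengths are those listed in the authors' deposited table and need not be the transcripts used in heart.

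Among the glucose carriers, the highest, SLC2A4 and SLC2A3, did not pass the test, while 3 lower ones (SLC2A1, SLC2A10 and SLC2A8) rose. The call of SLC2A8 is a description only. SLC2A4 (chromosome 12, 52628746 to 52634965 on the pig assembly Sscrofa11.1, as are all coordinates here), the insulin-responsive carrier, had 218, 175, 119.8, 199 and 81.7 CPM in doxorubicin 1 to 5, against 173, 198 and 162 CPM in vehicle 1 to 3. The groups overlapped, with doxorubicin 3 and 5 below all vehicle libraries and doxorubicin 1 and 4 above them. Its log2 fold change was −0.16 (SE 0.30, adjusted p = 0.709) and came to 0.00 without doxorubicin 5 and 0.18 with library size only. SLC2A3 (GLUT3), a carrier of high affinity best known from neurons, was at 286 ± 35.7 CPM after doxorubicin and 301 ± 27.9 CPM with vehicle, a difference of −0.08 on the log2 scale (SE 0.17) with an adjusted p of 0.761 (0.28 with library size only).

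SLC2A1 (chromosome 6, 168535398 to 168561170) rose. It had 25.5, 45.2, 38.4, 34.7 and 116 CPM in doxorubicin 1 to 5, against 13.9, 18.9 and 11.6 CPM in vehicle 1 to 3, and every doxorubicin library lay above every vehicle library. The fold change was 3.51 (log2 1.81, SE 0.49, adjusted p = 0.0277). Without doxorubicin 5, the highest library, the log2 fold change was 1.28 with an adjusted p of 0.00464. Leaving out any 1 vehicle library took the adjusted p above the threshold, up to 0.108. SLC2A1 overlaps ZNF691 on the genome, and reads of overlapping genes cannot be told apart without strand.

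SLC2A10 (chromosome 17, 48824054 to 48842811), whose loss in humans causes arterial tortuosity syndrome, rose as well, to 6.44 ± 3.79 CPM after doxorubicin, against 1.43 ± 0.339 CPM with vehicle (log2 fold change 2.16, SE 0.50, adjusted p = 0.0159). SLC2A8 (GLUT8), a carrier held inside the cell, had 3.26 ± 1.27 CPM against 0.897 ± 0.760 CPM (log2 1.86, SE 0.60, adjusted p = 0.0471). With 3 reads in vehicle 3 it was tested only because of its doxorubicin counts, so its call is a description. SLC2A12 (GLUT12), another carrier found in muscle, fell to 10.9, 8.29, 6.68, 7.88 and 3.60 CPM in doxorubicin 1 to 5, against 17.0, 12.6 and 16.9 CPM in vehicle 1 to 3. Its log2 fold change was −1.05 (SE 0.30, adjusted p = 0.0326), and with library size only it did not pass (adjusted p = 0.0965).

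In the whole SLC2 family 11 of 14 rows were tested, of which 3 rose, 1 fell and 7 did not pass. The share called was 36.4%, beside 24.9% of all tested genes, a description over few rows. SLC2A5 (GLUT5), the fructose carrier, had 6, 74, 92, 1 and 2419 reads in doxorubicin 1 to 5, against 0, 3 and 0 reads in vehicle 1 to 3. It did not pass (adjusted p = 0.0701), and without doxorubicin 5 it had too few reads to be tested. SLC2A9, a urate carrier, had 1, 15, 3, 2 and 18 reads in doxorubicin 1 to 5, against 0 reads in each of the 3 vehicle libraries. Against a floor of 3 reads summed over the vehicle libraries it was at least 7.16-fold higher as a share of counts, a bound that covers counting error only. SLC2A2 (GLUT2), the carrier of liver and pancreas, had 0 reads in all 8 libraries.

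**Figure D1:**
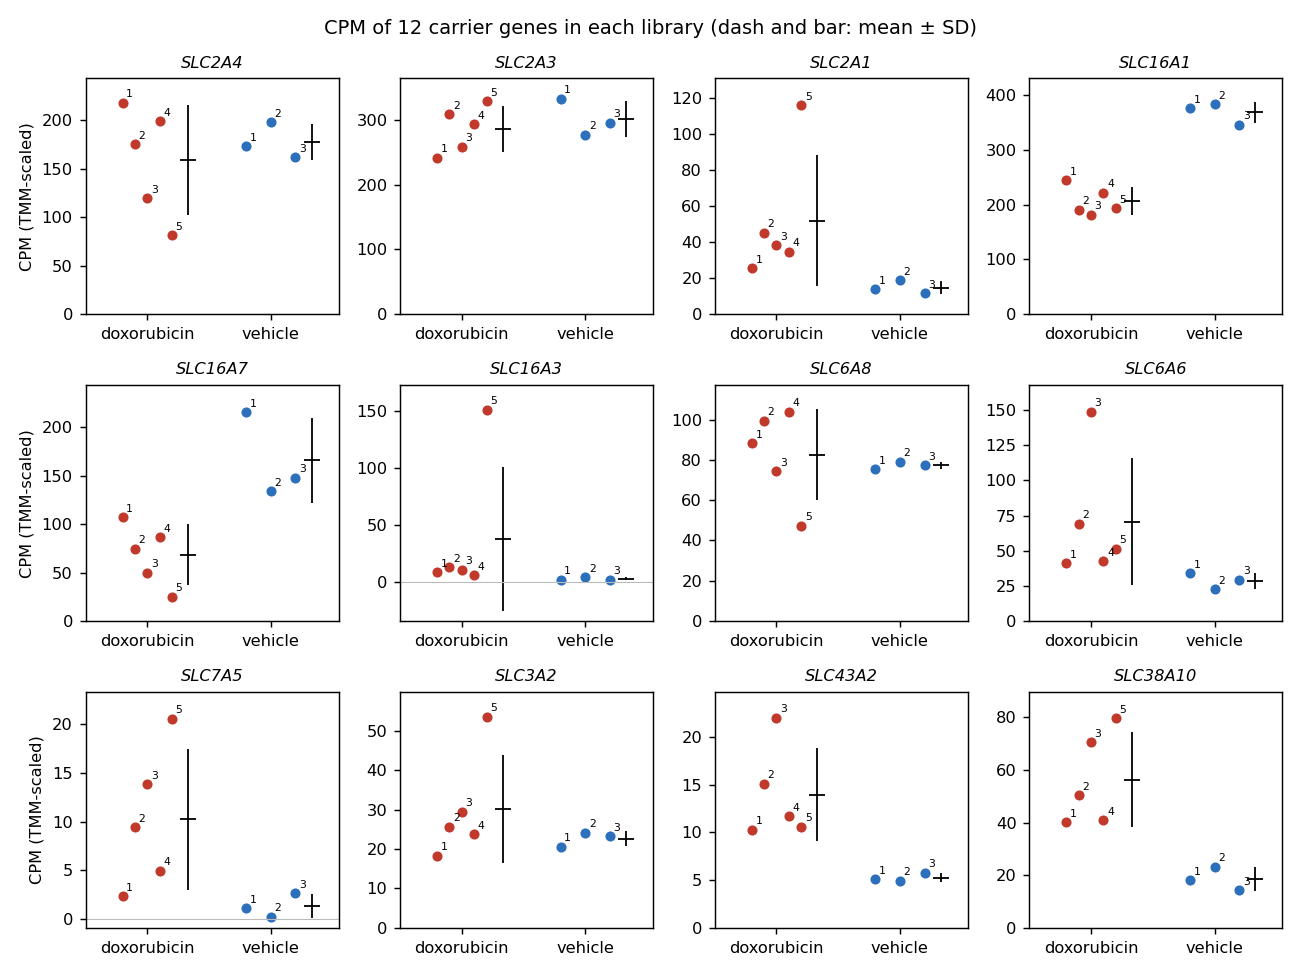
TMM-scaled CPM of 12 carrier genes in each library (points, numbered by replicate; y axes start at 0 except where an SD reaches below it), with the mean ± SD of 5 doxorubicin and 3 vehicle libraries beside them. SLC16A1, SLC16A7, SLC2A1, SLC43A2 and SLC38A10 show no overlap between the groups, while SLC2A4, SLC2A3 and SLC6A8 overlap, and SLC16A3 reaches 151 CPM in doxorubicin 5.

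The main carriers of lactate, pyruvate and ketone bodies fell. SLC16A1 (MCT1; chromosome 4, 107510920 to 107547609), through which the heart takes up lactate and ketone bodies, had 245, 191, 182, 222 and 194 CPM in doxorubicin 1 to 5, against 376, 383 and 346 CPM in vehicle 1 to 3. The highest doxorubicin library thus lay well below the lowest vehicle library. The fold change was 0.562 (log2 −0.83, SE 0.16, adjusted p = 0.0105), and the call was lost only without vehicle 1 (adjusted p = 0.0524). It overlaps LRIG2 on the genome, and SLC2A12, SLC16A10, SLC6A9 and SLC36A1 overlap other rows in the same way.

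SLC16A7 (MCT2; chromosome 5, 24713009 to 24871891), a carrier with high affinity for pyruvate and lactate, had 107, 74.8, 49.9, 86.7 and 25.2 CPM in doxorubicin 1 to 5, against 216, 134 and 148 CPM in vehicle 1 to 3. Its log2 fold change was −1.28 (SE 0.39, adjusted p = 0.0399). SLC16A10 (TAT1; chromosome 1, 76998359 to 77139534), which carries aromatic amino acids, fell to 12.1 ± 5.55 CPM after doxorubicin, against 27.3 ± 0.960 CPM with vehicle (log2 −1.17, SE 0.35, adjusted p = 0.0375). Both groups of libraries were again apart for these genes, and doxorubicin 5 was the lowest in each. With library size only neither passed (adjusted p = 0.0841 for SLC16A7 and 0.0867 for SLC16A10).

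SLC16A3 (MCT4), the carrier by which glycolytic cells release lactate, had 8.57, 12.5, 10.6, 5.50 and 151 CPM in doxorubicin 1 to 5, against 1.86, 4.16 and 1.92 CPM in vehicle 1 to 3. All 5 doxorubicin libraries were above the vehicle libraries, yet the value of doxorubicin 5 set it far apart, and the test did not pass (log2 3.83, SE 1.31, adjusted p = 0.0599). Without that library the log2 fold change was 1.81 with an adjusted p of 0.00784. SLC16A5, a carrier whose substrates are little known, rose to 7.97 ± 1.25 CPM after doxorubicin, against 4.04 ± 0.901 CPM with vehicle (log2 0.98, SE 0.24, adjusted p = 0.0183).

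Of the 14 SLC16 rows 13 were tested, with 1 higher, 3 lower and 9 not passing. The share called was 30.8%, beside 24.9% of all tested genes, so the count is a description of the family. Summed over the family the level was 407, 316, 283, 355 and 398 CPM in doxorubicin 1 to 5, against 641, 567 and 544 CPM in vehicle 1 to 3. SLC16A1 and SLC16A7 hold most of these sums. In doxorubicin 5 SLC16A3 contributed 151 of the 398 CPM.

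The genes that work with these carriers were counted as well. BSG, the membrane protein that brings SLC16A1 and SLC16A3 to the cell surface, fell to 569 ± 54.9 CPM after doxorubicin, against 863 ± 60.3 CPM with vehicle (log2 −0.60, SE 0.17, adjusted p = 0.0339; 0.278 with library size only). EMB, the partner of SLC16A7, and the lactate dehydrogenase subunits LDHA and LDHB did not pass (adjusted p from 0.0816 to 0.231). With library size only EMB (adjusted p = 0.0425) and LDHB (0.0173) passed as higher. EMB had 0.214 CPM in vehicle 1, and its vehicle counts alone would not have had it tested, so its pass there is a description. LDHA, the subunit of muscle and glycolytic cells, had 71.5, 99.7, 102, 81.5 and 779.8 CPM in doxorubicin 1 to 5, against 82.2, 81.6 and 91.8 CPM with vehicle, so its high value lay in doxorubicin 5, as for SLC16A3. Of the hexokinases HK2 rose (7.85 ± 7.99 against 1.18 ± 0.586 CPM, adjusted p = 0.0389) and HK1 did not pass (adjusted p = 0.128). HK2 had 0.555 CPM in vehicle 2, and its vehicle counts alone would not have had it tested, so its call is a description. With library size only HK1 passed as higher (adjusted p = 0.0118).

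Of 19 genes of the insulin signal and of SLC2A4 traffic none rose, 3 fell and 16 did not pass by edgeR (6 had an unadjusted p under 0.05), with a median log2 fold change of −0.03. The share that passed was 15.8%, beside 24.9% of all tested genes. The lower ones were PIK3CA, a catalytic subunit of the kinase below the insulin receptor (log2 −0.81, SE 0.20, adjusted p = 0.0184), RAB10, a small GTPase of SLC2A4 vesicles (log2 −0.56, SE 0.14, adjusted p = 0.0216), and SNAP23, a protein of vesicle fusion (log2 −0.63, SE 0.14, adjusted p = 0.0146). With library size only all 3 were above the threshold (adjusted p from 0.124 to 0.327). AKT1 (log2 0.77, adjusted p = 0.00804) and MYO1C (log2 0.86, adjusted p = 0.00832) then passed as higher, as did 27.4% of all tested genes. MYO1C also passed without doxorubicin 5 (adjusted p = 0.0154). TXNIP, which removes glucose carriers from the surface, did not pass (adjusted p = 0.181).

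The ratio of paired carriers within a library does not depend on how libraries are scaled. SLC2A1 had 0.117, 0.259, 0.321, 0.174 and 1.42 counts for each count of SLC2A4 in doxorubicin 1 to 5, against 0.0806, 0.0956 and 0.0716 in vehicle 1 to 3. All doxorubicin libraries lay above all vehicle libraries, and only in doxorubicin 5 did SLC2A1 exceed SLC2A4. The mean log2 ratio was −1.74 ± 1.37 after doxorubicin and −3.60 ± 0.21 with vehicle (exact permutation p = 0.0357, two-sided, the smallest that 5 against 3 allows; adjusted p = 0.0714 over 4 ratios). SLC16A3 over SLC16A1 was likewise higher in every doxorubicin library, at 0.0350, 0.0656, 0.0579, 0.0248 and 0.779 in doxorubicin 1 to 5, against 0.00494, 0.0109 and 0.00555 in vehicle 1 to 3 (difference of mean log2 ratios 3.49, exact permutation p = 0.0357, adjusted p = 0.0714).

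The other pairs overlapped. SLC7A5 over SLC7A8 had a mean log2 ratio of 1.95 ± 1.28 after doxorubicin and −0.02 ± 0.81 with vehicle (exact permutation p = 0.0714, adjusted p = 0.0952). In vehicle 2 this ratio rested on 4 reads of SLC7A5 and 8 of SLC7A8. SLC38A1 over SLC38A2 stood at −2.93 ± 0.79 and −3.03 ± 0.46 (exact permutation p = 0.821, adjusted p = 0.821), and its sign turned without doxorubicin 2, doxorubicin 3 or vehicle 2. None of the 4 ratios passed after adjustment.

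**Figure D2:**
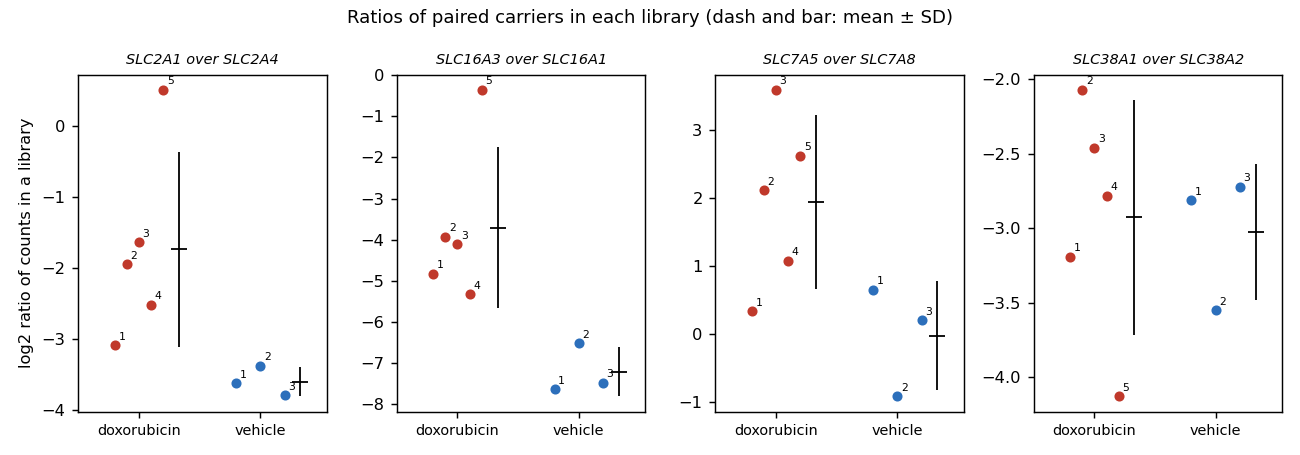
The log2 ratio of counts of each pair of carriers in each library (points, numbered by replicate), with the mean ± SD of 5 doxorubicin and 3 vehicle libraries. For SLC2A1 over SLC2A4 and SLC16A3 over SLC16A1 every doxorubicin library lies above every vehicle library and doxorubicin 5 is the highest, whereas SLC38A1 over SLC38A2 overlaps.

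Creatine, an energy store, and taurine, an osmolyte, are concentrated by heart muscle from the blood through carriers of the SLC6 family. SLC6A8 (chromosome X, 124435282 to 124452182), the creatine carrier, had 88.2, 99.4, 74.3, 104 and 47.4 CPM in doxorubicin 1 to 5, against 75.4, 79.0 and 77.4 CPM in vehicle 1 to 3. Doxorubicin libraries lay on both sides of the narrow vehicle range, with doxorubicin 5 the lowest, and the log2 fold change was 0.10 (SE 0.24, adjusted p = 0.785). SLC6A6 (chromosome 13, 70094073 to 70173581), the taurine carrier, had 41.1, 69.3, 149, 42.8 and 51.4 CPM, against 33.9, 22.7 and 29.3 CPM. Every doxorubicin library was above the vehicle libraries and doxorubicin 3 far above the rest, but the adjusted p was 0.0538 (log2 1.31, SE 0.44). It was under the threshold with library size only (0.0269), with DESeq2 (0.00917), with limma voom (0.00431), where 53.9% of all tested genes passed, and without doxorubicin 3, the highest library, where its log2 fold change was 0.84 (adjusted p = 0.0405). It was above the threshold without a filter (0.0920), without doxorubicin 2 (0.0822) or doxorubicin 5 (0.0561), and without any 1 vehicle library (0.124 to 0.157).

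The enzymes that make these substrates were counted beside their carriers. Of 5 genes of creatine and taurine synthesis none rose and 2 fell by edgeR, the same number as had an unadjusted p under 0.05. The share that passed was 40.0%, beside 24.9% of all tested genes (11.3% lower), a description over few genes. GATM, the first enzyme of creatine synthesis, was at 5.78 ± 1.04 CPM after doxorubicin and 12.9 ± 1.39 CPM with vehicle (adjusted p = 0.00794). CDO1, which oxidises cysteine on the way to taurine, was at 7.43 ± 1.70 CPM and 20.1 ± 1.63 CPM (adjusted p = 0.00546). Both also passed with library size only, at adjusted p of 0.0208 for GATM and 0.00501 for CDO1. GAMT, which completes creatine synthesis, CSAD and FMO1, of the taurine route, did not pass (adjusted p from 0.230 to 0.439). With library size only GAMT passed as higher (adjusted p = 0.0437).

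Both glycine carriers were very low in both groups. They were under the count minimum in every vehicle library and were tested only because of their doxorubicin counts, so their values are a description and their p-values support nothing. SLC6A9 (GlyT1), which takes up glycine in many cells, had 21, 29, 70, 22 and 75 reads in doxorubicin 1 to 5, against 9, 5 and 5 reads with vehicle, or 2.15 ± 1.26 CPM after doxorubicin, against 0.448 ± 0.169 CPM with vehicle (log2 2.25, SE 0.60, adjusted p = 0.0254). SLC6A5 (GlyT2), known from neurons that release glycine, had 16, 35, 47, 7 and 13 reads in doxorubicin 1 to 5, against 3, 0 and 3 reads with vehicle (log2 2.99, SE 0.90, adjusted p = 0.0389), a size that so few vehicle reads fix only loosely. SLC6A4, the serotonin carrier, had 6.22, 0.253, 0.514, 2.33 and 0.450 CPM in doxorubicin 1 to 5, against 5.50, 7.49 and 7.39 CPM with vehicle. Doxorubicin 1 lay within the vehicle range and the other 4 below it, and the test did not pass (adjusted p = 0.144). Of the 18 SLC6 rows 8 were tested, with 2 higher, 0 lower and 6 not passing by edgeR, and 5 at an unadjusted p under 0.05. The share called was close to the 24.9% of all tested genes, of which 6095 of 14938 had an unadjusted p under 0.05. The higher rows are SLC6A9 and SLC6A5, whose calls are descriptions, so the count of the family is a description too. The noradrenaline carrier SLC6A2 had 16 reads after doxorubicin and 13 with vehicle in all and was not tested.

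Among carriers of large neutral amino acids, SLC43A2 rose, SLC7A5 was called higher as a description only, and the heavy chain SLC3A2 did not pass. SLC7A5 (LAT1; chromosome 6, 1545940 to 1574298), which brings in leucine and other large neutral amino acids, had 2.35, 9.45, 13.8, 4.98 and 20.5 CPM in doxorubicin 1 to 5, against 1.14, 0.277 and 2.70 CPM in vehicle 1 to 3. Doxorubicin 1 fell below vehicle 3, so the groups overlapped, while the other 4 lay above (log2 2.89, SE 0.83, adjusted p = 0.0335). With 4 reads in vehicle 2 SLC7A5 was tested only because of its doxorubicin counts, so its call is a description. Both the deposited table and RefSeq list this pig row as a long non-coding RNA, so reads of other SLC7A5 transcripts may be missing from it. SLC3A2 (4F2hc), its partner on the membrane, had 18.3, 25.7, 29.4, 23.8 and 53.5 CPM, against 20.6, 24.1 and 23.2 CPM (log2 0.41, SE 0.31, adjusted p = 0.341), and the groups overlapped.

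SLC43A2 (LAT4; chromosome 12, 47791911 to 47839127), a carrier that lets branched-chain amino acids and phenylalanine leave or enter without a heavy chain, rose to 10.3, 15.1, 22.0, 11.7 and 10.6 CPM in doxorubicin 1 to 5, against 5.07, 4.92 and 5.76 CPM in vehicle 1 to 3. The fold change was 2.65 (log2 1.41, SE 0.29, adjusted p = 0.0116), and all doxorubicin libraries were above all vehicle libraries. SLC7A11 (xCT), the cystine carrier that feeds glutathione synthesis, was at 7.58 ± 2.19 CPM after doxorubicin and 8.54 ± 2.30 CPM with vehicle (log2 −0.17, SE 0.28, adjusted p = 0.676; log2 0.18 with library size only). Of the glutathione genes, GCLC, the catalytic subunit of the first step, fell (log2 −0.50, SE 0.15, adjusted p = 0.0423; 0.564 with library size only), whereas GCLM and GSS did not pass (adjusted p = 0.0682 and 0.914).

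SLC7A6, the highest of its family by mean CPM over all 8 libraries though not over the doxorubicin libraries alone, and a carrier that exchanges cationic for neutral amino acids, did not pass (log2 −0.32, SE 0.29, adjusted p = 0.432; log2 0.02 with library size only), and it overlaps SLC7A6OS. SLC7A1 (CAT1), the main carrier of arginine and lysine, had 11.6 ± 4.51 CPM after doxorubicin, against 5.69 ± 1.92 CPM with vehicle (adjusted p = 0.0550, and 0.0459 without doxorubicin 5). In the SLC7 family 9 of 14 rows were tested, of which 1 rose, 0 fell and 8 did not pass by edgeR, with 2 at an unadjusted p under 0.05. The share called was 11.1%, beside 24.9% of all tested genes.

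Small neutral amino acids and glutamine cross mainly through SLC1 and SLC38 carriers. SLC38A10 (chromosome 12, 1481245 to 1514499), a less studied relative of the glutamine carriers, rose to 40.2, 50.4, 70.6, 41.0 and 79.7 CPM in doxorubicin 1 to 5, against 18.1, 23.2 and 14.4 CPM in vehicle 1 to 3. The fold change was 3.03 (log2 1.60, SE 0.29, adjusted p = 0.00818), with no overlap between the groups. Of the members, only SLC38A10 stayed under the threshold in all 8 fits that left out 1 library, where its highest adjusted p was 0.0492. How many of all tested genes did so was not counted. Without 1 vehicle library only 4.19% to 12.7% of them were called. SLC38A2 (SNAT2), which imports alanine and glutamine and is known to be induced by amino acid starvation, was at 151 ± 15.1 CPM after doxorubicin and 145 ± 23.6 CPM with vehicle (log2 0.06, SE 0.17, adjusted p = 0.807).

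SLC38A3 (SNAT3), a glutamine carrier of liver, kidney and brain, had 10.5, 3.84, 2.15, 6.28 and 1.95 CPM in doxorubicin 1 to 5, against 13.4, 13.0 and 14.6 CPM in vehicle 1 to 3, with an adjusted p of 0.0525. SLC1A4 (ASCT1), which exchanges alanine, serine and cysteine, rose to 8.40 ± 3.05 CPM, against 4.12 ± 0.821 CPM with vehicle (log2 1.02, SE 0.32, adjusted p = 0.0418). Its relative SLC1A5 (ASCT2), which exchanges glutamine, had 17.4, 17.4, 28.4, 17.5 and 60.4 CPM in doxorubicin 1 to 5, against 12.3, 10.3 and 14.5 CPM in vehicle 1 to 3. The groups did not overlap, but the adjusted p was 0.0748 (log2 1.19, SE 0.44), and 0.0338 without doxorubicin 5, where the log2 fold change was 0.71. SLC1A2 (GLT-1), a glutamate carrier best known from astrocytes, was at 26.8 ± 8.67 CPM and 44.4 ± 7.36 CPM (log2 −0.73, SE 0.28, adjusted p = 0.0856). Its groups did not overlap either, and it passed as lower without doxorubicin 5 (log2 −0.54, adjusted p = 0.0256) and with limma voom (0.0145).

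Carriers of the lysosome, which let amino acids out to the cytosol where mTORC1 is switched on, differed among themselves. SLC36A1 (PAT1; chromosome 16, 71540646 to 71589532), a proton-coupled exporter of small amino acids, rose to 11.1 ± 2.62 CPM after doxorubicin, against 6.76 ± 0.268 CPM with vehicle, with no overlap (log2 0.72, SE 0.23, adjusted p = 0.0446). SLC38A9, the arginine sensor of the lysosome, differed by −0.03 on the log2 scale (SE 0.17) with an adjusted p of 0.900. Of 11 genes of amino acid sensing at mTORC1, LAMTOR1, an anchor of the complex at the lysosome, rose (log2 0.56, SE 0.17, adjusted p = 0.0434). RRAGD, one of the Rag GTPases, fell to 73.1 ± 18.2 CPM, against 158 ± 17.2 CPM with vehicle (adjusted p = 0.00945), and the other 9 did not pass. The share that passed was 18.2%, beside 24.9% of all tested genes. Without doxorubicin 5 NPRL3 passed as higher (adjusted p = 0.0416) and RRAGC as lower (0.0248). NPRL3 also passed as higher with library size only (adjusted p = 0.00805).

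Several amino acid carriers are known targets of the transcription factor ATF4, and 10 genes of that amino acid response were set beside them. Of these 3 rose, 0 fell and 7 did not pass by edgeR, and no other had an unadjusted p under 0.05. Of all 14938 tested genes 24.9% passed (13.6% higher), and 6095 had an unadjusted p under 0.05. The count of this list is therefore a description over few genes. SESN2, a leucine sensor that restrains mTORC1, rose to 8.20 ± 3.46 CPM after doxorubicin, against 1.91 ± 0.445 CPM with vehicle (adjusted p = 0.0109). PHGDH, the first enzyme of serine synthesis, had 0.873, 3.89, 5.56, 2.59 and 22.9 CPM, against 0.214, 0.277 and 0.711 CPM (adjusted p = 0.0293). Its vehicle counts alone would not have had it tested, so this call is a description. CHAC1, which breaks down glutathione, was nearly without reads with vehicle and was tested only because of its doxorubicin counts, so its call is a description. It had 16.5 CPM in doxorubicin 5 and between 0.415 and 1.45 CPM in the other 4, against 0 to 0.0693 CPM with vehicle (adjusted p = 0.0354). ASNS, asparagine synthetase, had 50.4 CPM in doxorubicin 5 and between 9.08 and 14.3 CPM in the other 4, against 25.2 to 29.7 CPM with vehicle, so that doxorubicin 5 lay above the vehicle range and the other 4 below it (adjusted p = 0.512, and 0.00269 without doxorubicin 5). ATF4 itself did not pass (adjusted p = 0.491). With library size only CEBPB, another gene of the list, passed as higher (adjusted p = 0.0301), as did 27.4% of all tested genes.

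**Figure D3:**
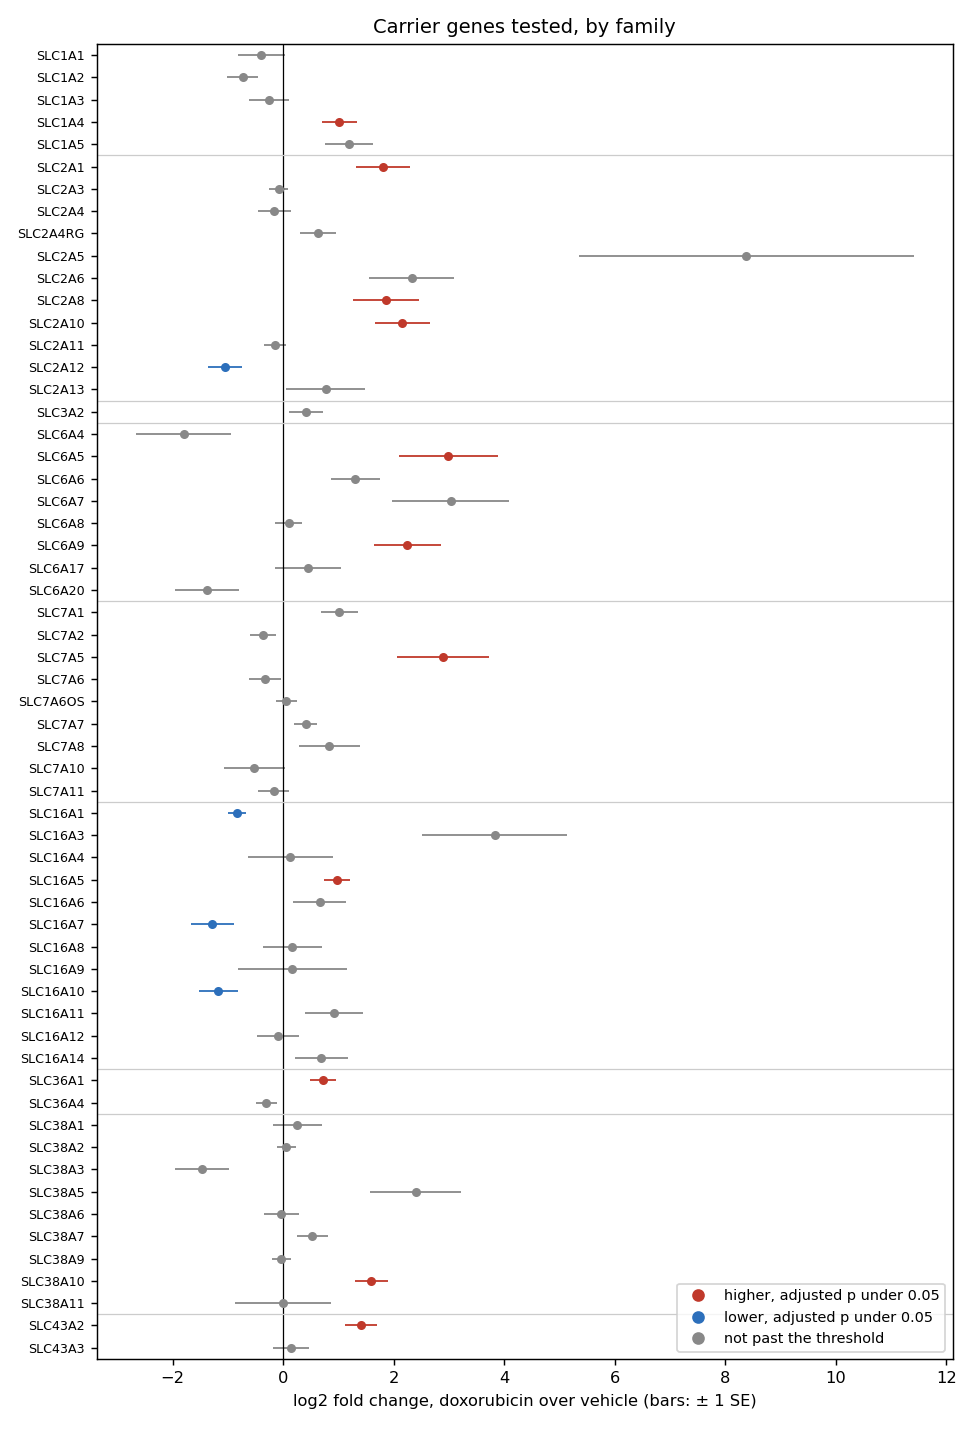
Log2 fold change of the tested members reported here, doxorubicin over vehicle (x axis), with bars of ± 1 SE, grouped by family from SLC1 to SLC43. Red points passed as higher (11 genes), blue points as lower (4 genes, of which 3 belong to SLC16), and grey points did not pass, SLC2A5 at 8.38 (SE 3.03) among them.

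The doxorubicin libraries differed more among themselves than the vehicle libraries did. Of 38 members with a mean of at least 5 CPM, 29 had a larger coefficient of variation after doxorubicin, with medians of 35.3% and 19.5%. Over all tested genes at that level the share with a larger coefficient after doxorubicin was 75.0%. Of the 11 higher members, 6 were highest in doxorubicin 5 and 5 in doxorubicin 3, and 6 were lowest in doxorubicin 1. Of the 4 lower members, 3 were lowest in doxorubicin 5. The same shares over all genes called higher or lower were not counted, so these counts are descriptions. The share of tested members that were highest in doxorubicin 5 among the doxorubicin libraries was 33.3%, and that of all tested genes 33.1%. For doxorubicin 3 it was 28.3% of members and 17.2% of all tested genes.

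**Figure D4:**
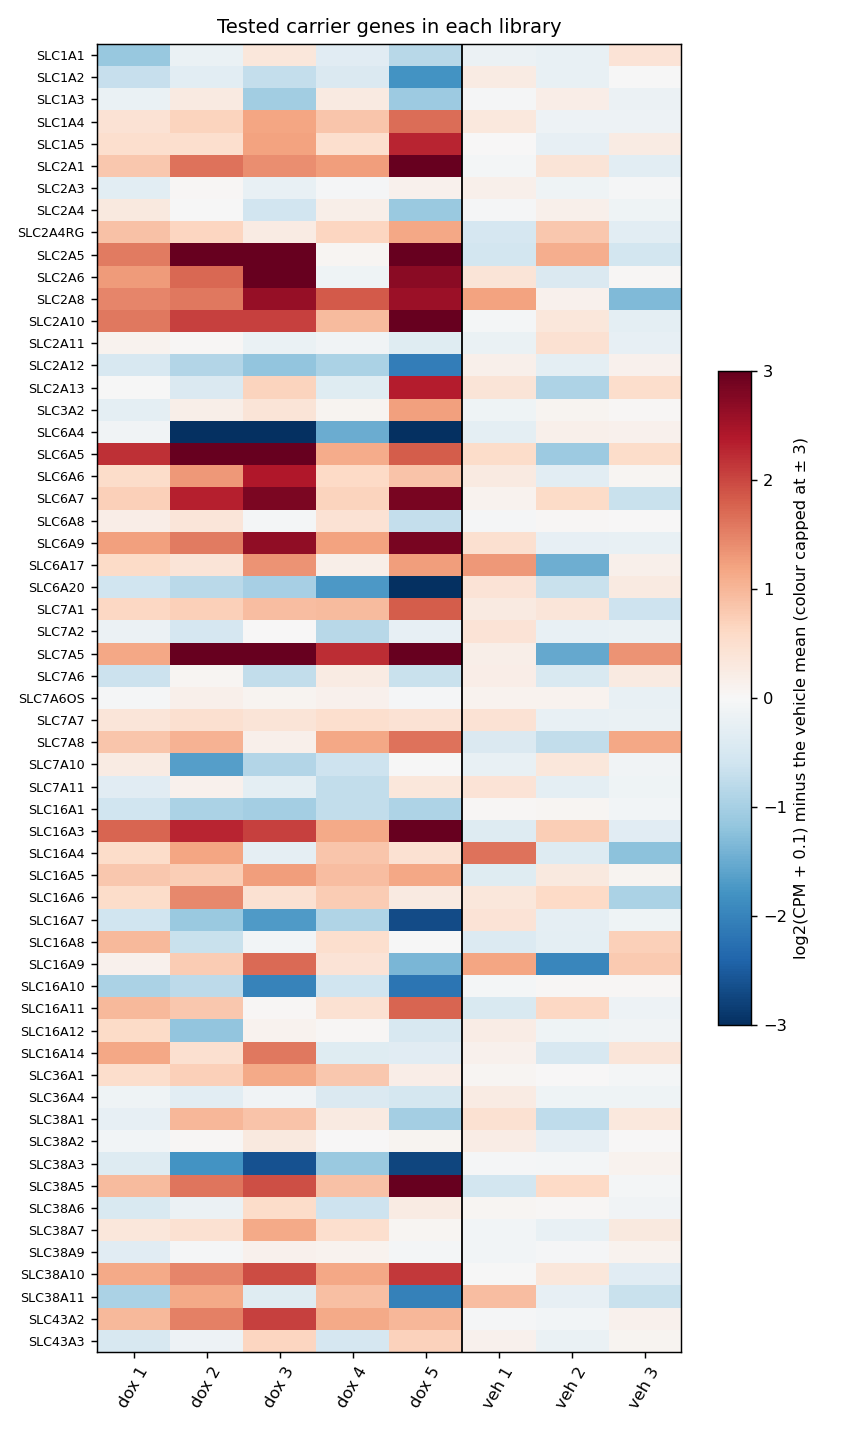
Each tested member reported here (rows, by family) in each of 5 doxorubicin and 3 vehicle libraries (columns), as log2(CPM + 0.1) minus the mean of the vehicle libraries, with colour capped at ± 3. SLC2A1, SLC16A3 and SLC38A5 are darkest in doxorubicin 5 and paler in doxorubicin 1 to 4, whereas SLC16A1 has a similar shade in all 5.

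Some members lie close together on the genome. SLC38A1 and SLC38A2, 36.8 kb apart on chromosome 5 and on the same strand, had log2 fold changes of 0.26 and 0.06, and neither passed. SLC2A7 lies 4.1 kb from SLC2A5 on chromosome 6 and had 2 reads in all, while SLC2A5 had 2419 reads in doxorubicin 5 alone. SLC36A2 and SLC36A3, within 100 kb of SLC36A1 on chromosome 16, had 2 and 0 reads. By chromosome, 3 of 8 tested members on chromosome 12 rose and 0 fell, where 21.9% of all tested genes rose and 3.04% fell by edgeR. On chromosome 1, 1 of 6 rose and 2 fell, where 8.06% of all tested genes rose and 16.4% fell.

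The calls depended on the vehicle libraries and on the scaling. Without vehicle 1, 2 or 3, the number of members called was 1, 6 or 2, where 4.19%, 12.7% and 4.61% of all tested genes were called. SLC38A10 alone was called without vehicle 1, and SLC38A10 with SLC16A1 without vehicle 3. Without vehicle 2 the called members were SLC16A1, SLC16A5, SLC2A10, SLC38A10, SLC43A2 and SLC2A4RG. Leaving out doxorubicin 2 or doxorubicin 3 left 8 members in each case, where 17.1% and 17.6% of all tested genes were called. SLC2A8, SLC2A12, SLC16A7, SLC6A5, SLC7A5, SLC1A4 and SLC36A1 were lost in both. Without doxorubicin 5, 19 members were called (14 higher and 5 lower), beside 32.3% of all tested genes (16.8% higher and 15.4% lower), and 14 of the 15 members called with all libraries were among them, the exception being SLC2A8 (adjusted p = 0.0506). With library size only the median of all tested genes moved to 0.38, and 21 members passed, 20 higher and 1 lower, beside 30.7% of all tested genes (27.4% higher and 3.34% lower). SLC16A1 was then the lower one, at −0.48 on the log2 scale (adjusted p = 0.0372).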

How the data were processed

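Heart RNA of 8 wild-type miniature pig samples (5 doxorubicin, 3 vehicle) was measured by sequencing; per the labels' protocols, total RNA came from RNeasy columns and went into SMARTER mRNA libraries. The authors deposited raw counts per gene, whole numbers whose totals differ between libraries; columns were matched to samples by title. Aligner, counter, build and strand setting: not given in the sources used here. All 87 members had the same ID, start and end in RefSeq (Sscrofa11.1). The gene length, a unit in bases, is from the deposited table.

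Counts were fitted in R 4.3.3 with edgeR 4.0.16: filterByExpr (minimum count 10, total 15), TMM, robust quasi-likelihood test, treatment as the only term, two-sided, Benjamini-Hochberg. SE is the log2 fold change over the square root of F. The fit was tested on simulated data. Ratios used counts + 0.5 and exact permutation over 56 splits (scipy 1.17.1). Alternatives were RLE factors, library size only, TMM without mitochondrial and the 20 most abundant genes, no filter, voom with sample weights (limma 3.58.1), DESeq2 1.42.0, the replicate number as a block, a pseudocount of 5 for ratios, and leaving out each library. Figures used matplotlib 3.10.9. Same-numbered samples did not deviate together (correlations 0.0425, 0.00205 and −0.00312), so they were not paired. Pairs within a group differed by 17.2 to 284 times sampling noise (chi-square per degree of freedom), and none was treated as a copy.

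Members, lists and tests were chosen with earlier results of these data known. The members named were 11 members fixed by role, every member past the threshold, the highest of each family by CPM, and members with 0 reads in a group and at least 10 in the other. Other members named were chosen after their values were seen. Of the members tested, 1 is counted but not reported here by name. Sequences and promoter motifs were not analysed here.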

Additional observations from a re-analysis of the deposited data

Results flagged for a closer look

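Among 60 tested members, 8 had 1 doxorubicin library far from the other 4 (the gap to its nearest neighbour divided by the whole range above 0.71). Chance gives about 1 in 20, and 10.9% of all tested genes were flagged in the same way, beside 13.3% of the members. In 7 of the 8 the library was doxorubicin 5, and in each it was the highest. SLC2A5 had 121 CPM there and 0.0519 to 4.30 CPM in the other 4 (gap over range 0.965). SLC16A3 had 151 CPM, with 5.50 to 12.5 CPM in the others (0.952). SLC38A5, a glutamine carrier, had 14.9 CPM, with 1.71 to 3.69 CPM in the others (0.850). SLC2A13, the myo-inositol carrier, had 17.0 CPM, with 2.37 to 5.18 CPM in the others (0.808). SLC7A1 had 19.5 CPM, with 8.35 to 10.6 CPM in the others (0.794). SLC2A1 had 116 CPM, with 25.5 to 45.2 CPM in the others (0.782). SLC1A5 had 60.4 CPM, with 17.4 to 28.4 CPM in the others (0.745). The eighth was SLC6A6, with 149 CPM in doxorubicin 3 and 41.1 to 69.3 CPM in the other 4 (0.740).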

How the results depend on the processing

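All 26 named members kept direction and call with RLE factors and with TMM factors set without the mitochondrial and most abundant genes. Members called (15; 11 higher, 4 lower) were 30 (22 and 8) with limma voom and had 17 higher with DESeq2 and 20 higher and 1 lower with library size only. All genes called (3714; 2033 higher, 1681 lower) were 8051 (4030 and 4021) with voom and 4093 higher and 499 lower with library size only. Leaving out 1 library gave 1 to 24 members (1 to 18 higher, 0 to 6 lower) and 649 to 4737 genes (334 to 2472 higher, 315 to 2265 lower). Signs turned for members that were not called: with library size only SLC2A3 (0.28), SLC2A4 (0.18), SLC7A11 (0.18) and SLC7A6 (0.02); SLC2A4 with voom (0.08) and ran from −0.30 to 0.00 with 1 library left out, with 0.00 where doxorubicin 5 was out; SLC38A2 without vehicle 2 (−0.05) and SLC7A11 (−0.31 to 0.06 with 1 library left out) without vehicle 1. The SLC38A1 over SLC38A2 difference ran from −0.16 to 0.41 with 1 library left out. Without a filter SLC16A7, SLC2A1, SLC36A1 and SLC7A5 lost their call (adjusted p 0.0567 to 0.0789). The causes were not tested. With the replicate number as a block 21 members and 3638 genes passed, SLC1A4 (adjusted p = 0.0984) and SLC2A8 (0.111) lost their call, and SLC16A14, SLC16A3, SLC1A5, SLC2A5, SLC2A6, SLC38A3, SLC38A5 and SLC6A6 (8 members) gained one; the samples share only a number. With 3 vehicle libraries and 1 left out, ratios cannot reach an exact p below 0.0952, or 0.0571 without a doxorubicin library.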

Other observations

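The deposited table describes 18 further rows as carriers of these kinds under LOC names, which the name rule leaves out. Of these 2 were tested, both described as cationic amino acid transporter 3 or like it. LOC100626318 had 19.0, 9.60, 9.76, 16.4 and 6.80 CPM in doxorubicin 1 to 5, against 23.2, 20.9 and 24.5 CPM in vehicle 1 to 3, with no overlap between the groups (edgeR adjusted p = 0.0583, log2 fold change −0.89, SE 0.31). LOC100626407 differed by −0.02 on the log2 scale (SE 0.30) with an adjusted p of 0.963. SLC7A3, the member that bears the name of that carrier, had 0 reads in all 8 libraries. Whether these rows share reads was not tested.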
